A study of Mus musculus with 6 samples.

Results

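The miR-200 family of mice consists of 5 microRNAs (miRNAs), miR-200a, miR-200b, miR-200c, miR-141 and miR-429, which are made in epithelial cells. In the liver that means chiefly the cells lining the bile ducts, and hepatocytes, endothelium and blood cells are known to hold little of them. The 3p arms were taken by name from the deposited count table, so 5 of its 1960 miRNAs are described; all 5 had counts in every library and all 5 passed the filter on low counts that left 297 miRNAs for testing.

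miRNAs are RNAs of about the length of the sequences printed below that pair through their seed, bases 2 to 8, with messenger RNAs and lower their output. The miR-200 family is known for silencing Zeb1 and Zeb2, transcription factors that repress E-cadherin, and so for holding cells in an epithelial state; Zeb1 and Zeb2 in turn repress the miR-200 genes. Messenger RNAs were not measured, so that loop has no value here.

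The libraries came from immune cells isolated from dissociated livers of female wildtype C57BL/6J mice aged 10 weeks, with 2 libraries, called biological replicates in the labels, in each of 3 groups. The Vehicle group, without disease, was given DMSO in corn oil. The ConA+Vehicle group was given concanavalin A (ConA), a lectin that activates T cells and causes immune hepatitis, at 12.5 mg/kg through the retro-orbital sinus. The ConA+D8THC group had that ConA dose plus D8THC (delta-8-tetrahydrocannabinol, which binds cannabinoid receptors). Each intraperitoneal D8THC dose was 20 mg/kg in a volume of 100 µL, with the first 15 to 18 h ahead of ConA and the second 30 min later than it. How many mice each library holds and when livers were taken is not stated in the labels, so p-values measure only the spread between these libraries.

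The 5 mature sequences are shown first because they set the family's groups. Each is written 5′ to 3′ with the seed in capitals, from RefSeq on build GRCm38.p6.

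miR-200a-3p: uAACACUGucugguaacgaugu
miR-141-3p: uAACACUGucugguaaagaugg
miR-200b-3p: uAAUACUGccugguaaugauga
miR-429-3p: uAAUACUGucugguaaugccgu
miR-200c-3p: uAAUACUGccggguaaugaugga

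The family holds 2 seeds that differ at 1 base. miR-200a-3p and miR-141-3p carry AACACUG, while miR-200b-3p, miR-200c-3p and miR-429-3p carry AAUACUG. Counted from the 5′ end, the seed change from miR-200a-3p to miR-200b-3p is C4U. Among the 1671 miRNAs of the table with a RefSeq sequence, these seeds were found in no miRNA outside the family. Within the first group, miR-200a-3p and miR-141-3p differed at 2 of 22 positions, C17A and U22G. miR-200b-3p and miR-200c-3p also differed at 2 of 22, U11G and A22G, and miR-200c-3p is 1 base longer. The rule for reads that match several miRNAs is not stated in the labels, so members this alike may share reads.

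The seed groups cut across the gene clusters. In mm10 (GRCm38.p6), the hairpins Mir429 (chr4:156053905-156053987), Mir200a (chr4:156054896-156054985) and Mir200b (chr4:156055681-156055750) lie within 1846 bases on the minus strand. GENCODE M21 places all of them in an intron of Ttll10 and within the noncoding gene Gm13648, an exon of which overlaps Mir429. Mir141 (chr6:124717914-124717985) and Mir200c (chr6:124718322-124718390) lie within 477 bases, also on the minus strand, between Phb2 and Ptpn6 and in an intron of the noncoding gene Gm15884. Mir141 also overlaps an exon of the unclassified gene Gm29008. Each cluster thus makes both seeds.

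Total counts ran from 322764 to 1172389 per library and were lowest in the ConA+Vehicle libraries. Levels below are CPM, counts divided by a library size that TMM normalization adjusts so that the bulk of miRNAs is centred; 3 counts correspond to 2.63 to 9.93 CPM. The isolated cells were a mixture by their miRNAs. The arms of miR-142a, found across blood cells, took 2.53% to 11.2% of a library's counts, and those of the endothelial miR-126a took 12.8% to 34.2%. In such bulk samples, fewer cells of a type and less RNA per cell cannot be told apart.

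The family took a small and similar part of every group. Its summed share of counts was 0.427% (95% exact binomial interval 0.413% to 0.442%) in Vehicle replicate 1 and 0.470% (0.458% to 0.483%) in Vehicle replicate 2. In ConA+Vehicle it was 0.482% (0.460% to 0.505%) and 0.427% (0.405% to 0.450%) in replicates 1 and 2, and in ConA+D8THC 0.357% (0.345% to 0.370%) and 0.509% (0.492% to 0.526%). These and all later intervals of shares cover counting error only. The lowest and the highest of the 6 values were thus the 2 libraries of 1 group, ConA+D8THC.

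On the CPM scale the summed level was 4637 ± 273 (SD, n = 2) for Vehicle, 4572 ± 15.5 for ConA+Vehicle and 4183 ± 1154 for ConA+D8THC. The group means lay closer together than the 2 ConA+D8THC libraries, which held 3367 and 4999 CPM. With 2 libraries against 2, an exact two-sided permutation test cannot go below p = 0.33, so sums and ratios are given without a test.

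Within the family the order of levels was nearly the same in all libraries. The members are 22 or 23 bases long, so their CPM can be set side by side per length, although how well each sequence is captured was not measured. miR-200a-3p led with a mean of 2611 CPM over the 6 libraries, the 44th highest of the 297 tested miRNAs. It was followed by miR-200b-3p (985 CPM, 65th), miR-429-3p (425 CPM, 86th), miR-141-3p (284 CPM, 101st) and miR-200c-3p (159 CPM, 127th). Each member was above the next in 6 of 6 libraries, except miR-141-3p over miR-200c-3p, which held in 5 of 6.

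**Figure D1:**
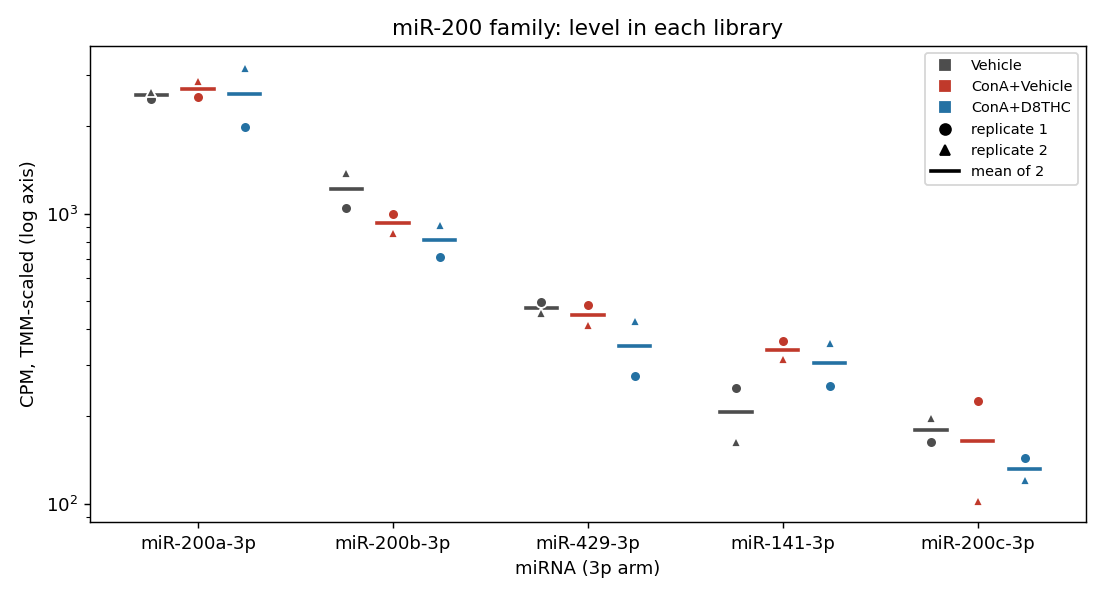
CPM on a log axis (TMM-scaled) of the 5 members in each of the 6 libraries; circles and triangles are replicates 1 and 2, bars are means of 2 libraries, and colours are groups. The members keep their order except in Vehicle replicate 2, where miR-200c-3p (197 CPM) is above miR-141-3p (163 CPM), with miR-200a-3p between 1982 and 3184 CPM and miR-200c-3p between 103 and 227 CPM.

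miR-200a-3p, the most abundant member, had Vehicle levels of 2487 and 2633 CPM (replicates 1 and 2, an order kept below), ConA+Vehicle levels of 2513 and 2869, and ConA+D8THC levels of 1982 and 3184. The ConA+D8THC libraries enclosed all others, so no groups separated against that one, and Vehicle and ConA+Vehicle overlapped too. Its log2 fold change was 0.07 ± 0.25 (SE; 95% interval -0.48 to 0.62) for ConA+Vehicle against Vehicle, with an edgeR quasi-likelihood adjusted p of 0.851. For ConA+D8THC against ConA+Vehicle it was -0.06 ± 0.25 (-0.61 to 0.49; adjusted p = 0.969). The sign of these near-zero values turned with the normalization, as given among the processing alternatives.

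miR-141-3p, the other carrier of AACACUG, was the member with the largest difference between Vehicle and ConA+Vehicle. It held 249.8 and 163 CPM in Vehicle (181 and 186 counts), with ConA+Vehicle (146 and 95 counts) at 364 and 314 and ConA+D8THC at 254 and 357 (246 and 251 counts). Both Vehicle libraries lay below all 4 libraries of mice given ConA, by as little as 249.8 against 254 CPM. Separation from Vehicle was common, seen in 67.3% of all tested miRNAs for ConA+Vehicle and in 74.7% for ConA+D8THC. ConA+Vehicle was 1.65-fold above Vehicle (95% interval 1.05 to 2.60; log2 0.72 ± 0.30), which missed the threshold after adjustment over all miRNAs (edgeR's quasi-likelihood test, adjusted p = 0.0806).

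This value sat close to the threshold and crossed it with several choices. It passed in 6 of 14 alternative fits, among them that without Vehicle replicate 1 (log2 1.04, edgeR adjusted p = 0.0238). Without Vehicle replicate 2 it was at log2 0.45, and over the 14 fits the adjusted p ran from 0.0238 to 0.404. In ConA+D8THC against Vehicle its log2 fold change was 0.57 ± 0.29 (adjusted p = 0.150), and against ConA+Vehicle -0.16 ± 0.29 (adjusted p = 0.886).

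miR-200b-3p, the main carrier of AAUACUG, stood at the other end. It held 1049 and 1383 CPM in Vehicle, with ConA+Vehicle at 995 and 860.5 and ConA+D8THC at 711 and 912. Both Vehicle libraries were above the other 4, and the ConA+Vehicle and ConA+D8THC groups overlapped. Of all tested miRNAs, 67.3% separated between ConA+Vehicle and Vehicle and 74.7% between ConA+D8THC and Vehicle. ConA+D8THC was at 0.667 times the Vehicle level (95% interval 0.463 to 0.960; log2 -0.59 ± 0.24), which did not pass after adjustment (edgeR adjusted p = 0.0783). It passed in 2 of 14 alternative fits, one of them that without Vehicle replicate 1 (log2 -0.77, adjusted p = 0.0310), and over these fits the adjusted p ran from 0.0150 to 0.408. Without Vehicle replicate 2 it was at log2 -0.34. For ConA+Vehicle against Vehicle the log2 fold change was -0.39 ± 0.24 (adjusted p = 0.230).

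miR-429-3p, which shares the miR-200b seed and the chromosome 4 cluster, held 495 and 453 CPM in Vehicle, with ConA+Vehicle at 484 and 414 and ConA+D8THC at 277 and 425. Vehicle and ConA+Vehicle overlapped, while both ConA+D8THC libraries were below both Vehicle libraries. These 2 groups did not overlap for 74.7% of all tested miRNAs. The log2 fold change of ConA+D8THC against Vehicle was -0.44 ± 0.26 (95% interval -1.02 to 0.14; edgeR adjusted p = 0.209), and against ConA+Vehicle -0.36 ± 0.27 (adjusted p = 0.582). Both rest on which ConA+D8THC library is used: without replicate 1 they were -0.14 and -0.062, and without replicate 2 -0.72 and -0.67.

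miR-200c-3p, the scarcest member, held 163 and 197 CPM in Vehicle and 143 and 121 in ConA+D8THC. The ConA+Vehicle libraries were the highest and the lowest of all, with 227 CPM (91 counts) in replicate 1 and 103 CPM (31 counts) in replicate 2. Its intervals were accordingly the widest: the log2 fold change of ConA+Vehicle against Vehicle was -0.11 ± 0.37 (95% interval -0.94 to 0.71; edgeR adjusted p = 0.851). That of ConA+D8THC against Vehicle was -0.45 ± 0.36 (adjusted p = 0.350). Leaving out 1 ConA+Vehicle library moved the first of these between -0.79 and 0.34.

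Counted over the family, ConA+Vehicle against Vehicle asked which miRNAs differ with hepatitis. Of the 5 members, 0 were called by edgeR (adjusted p under 0.05), beside 36.7% of all 297 miRNAs tested (0 higher beside 19.9%, 0 lower beside 16.8%). DESeq2 called 0 and limma-voom called 0; the unadjusted p was under 0.05 for 1. The median log2 fold change of the members was -0.08, against 0.10 for all tested miRNAs. The median size of change regardless of sign was 0.11 for the members and 0.75 for all. For 2 of the 5, miR-141-3p and miR-200b-3p, the groups did not overlap, a pattern seen in 67.3% of all tested miRNAs.

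ConA+D8THC against ConA+Vehicle asked what D8THC changed in mice given ConA. Again 0 of the 5 were called by edgeR, beside 3.7% of all tested, all of them lower. The unadjusted p was under 0.05 for 0 members, and the counts by DESeq2 and by limma-voom were 0. All 5 values were below 0, with a median of -0.19 against -0.04 for all miRNAs, and 0 of 5 had groups that did not overlap (46.8% of all tested). The sign turned in some fits for miR-200a-3p, miR-200c-3p and miR-141-3p. The widest interval, of miR-200c-3p, ran from log2 -1.17 to 0.50, so that differences of up to 2.24-fold lower are within it.

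ConA+D8THC against Vehicle shares its libraries with both comparisons above, so it is no separate evidence. In it 0 of 5 members were called by edgeR, beside 32.7% of all tested (0 higher beside 18.5%, 0 lower beside 14.1%). By DESeq2 and by limma-voom the count was also 0, and the unadjusted p was under 0.05 for 1. The median was -0.44 against -0.06 for all miRNAs, with 2 members above 0 and 3 below. For 4 of the 5 the groups did not overlap, as for 74.7% of all tested miRNAs; the exception was miR-200a-3p.

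**Figure D2:**
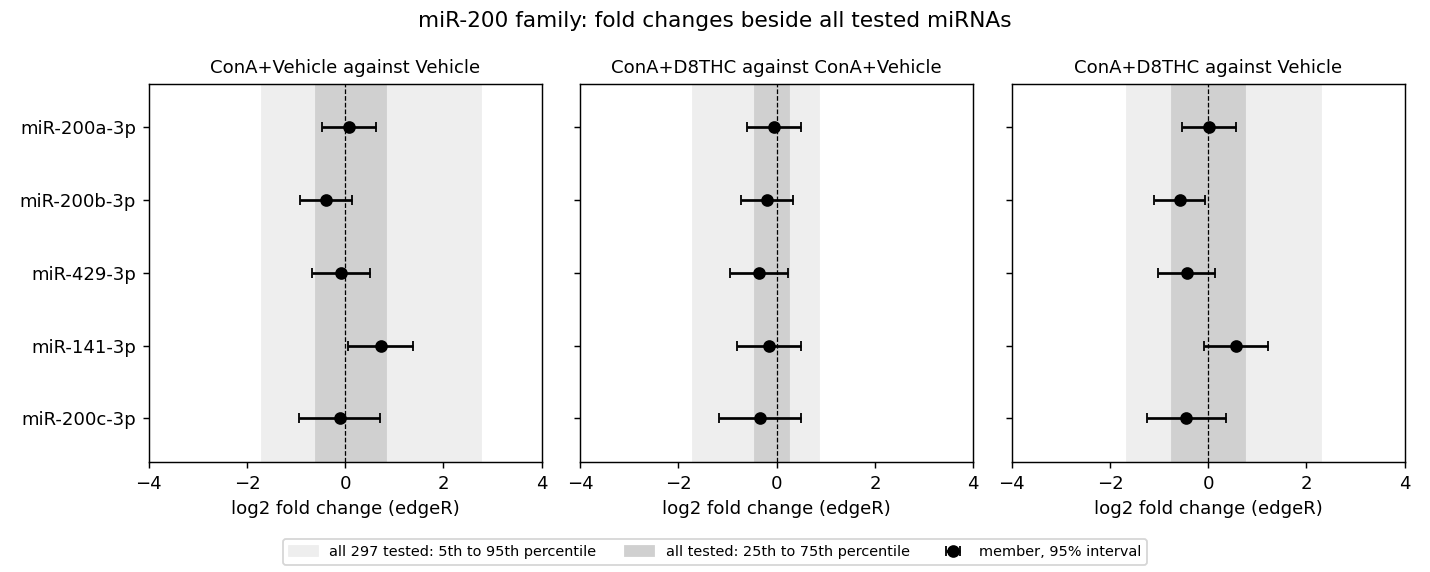
Log2 fold change from edgeR (x axis) of the 5 members in the 3 comparisons, with 95% intervals; grey bands show where the middle 50% and the middle 90% of all 297 tested miRNAs lie. The intervals of miR-141-3p in ConA+Vehicle against Vehicle (0.07 to 1.38) and of miR-200b-3p in ConA+D8THC against Vehicle (-1.11 to -0.06) lie to one side of 0 before adjustment.

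The make-up of the family gives a value that does not depend on scaling between libraries. The 2 carriers of AACACUG together made up 61.6% (95% exact binomial interval 59.9% to 63.3%) and 57.9% (56.6% to 59.2%) of the family's counts in Vehicle replicates 1 and 2. In ConA+Vehicle they made up 62.8% (60.5% to 65.0%) and 69.8% (67.3% to 72.2%), and in ConA+D8THC 66.4% (64.8% to 68.0%) and 70.8% (69.3% to 72.3%). Both Vehicle libraries were thus the lowest, although Vehicle replicate 1 and ConA+Vehicle replicate 1 had overlapping intervals, and the 2 ConA groups overlapped each other. This share was chosen after the counts were seen and is a description of 6 libraries. How often other shares order the libraries so was not computed.

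By member, miR-141-3p made up 4.50% ± 1.59 (SD, n = 2) of Vehicle family counts, 7.42% ± 0.742 of those of ConA+Vehicle and 7.34% ± 0.280 of those of ConA+D8THC, with no overlap between Vehicle and either. miR-200a-3p made up 55.2% ± 1.02, 58.9% ± 5.71 and 61.3% ± 3.41 in the same order, and its Vehicle and ConA+Vehicle libraries overlapped. miR-200b-3p made up 26.1% ± 3.56, 20.3% ± 2.01 and 19.7% ± 2.03. On the CPM scale the AACACUG carriers summed to 2766 ± 42.4, 3030.5 ± 217 and 2889 ± 923, with the ConA+D8THC libraries (2236 and 3541) on either side of Vehicle. The AAUACUG carriers summed to 1870.4 ± 231, 1541 ± 232 and 1295 ± 231 CPM.

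**Figure D3:**
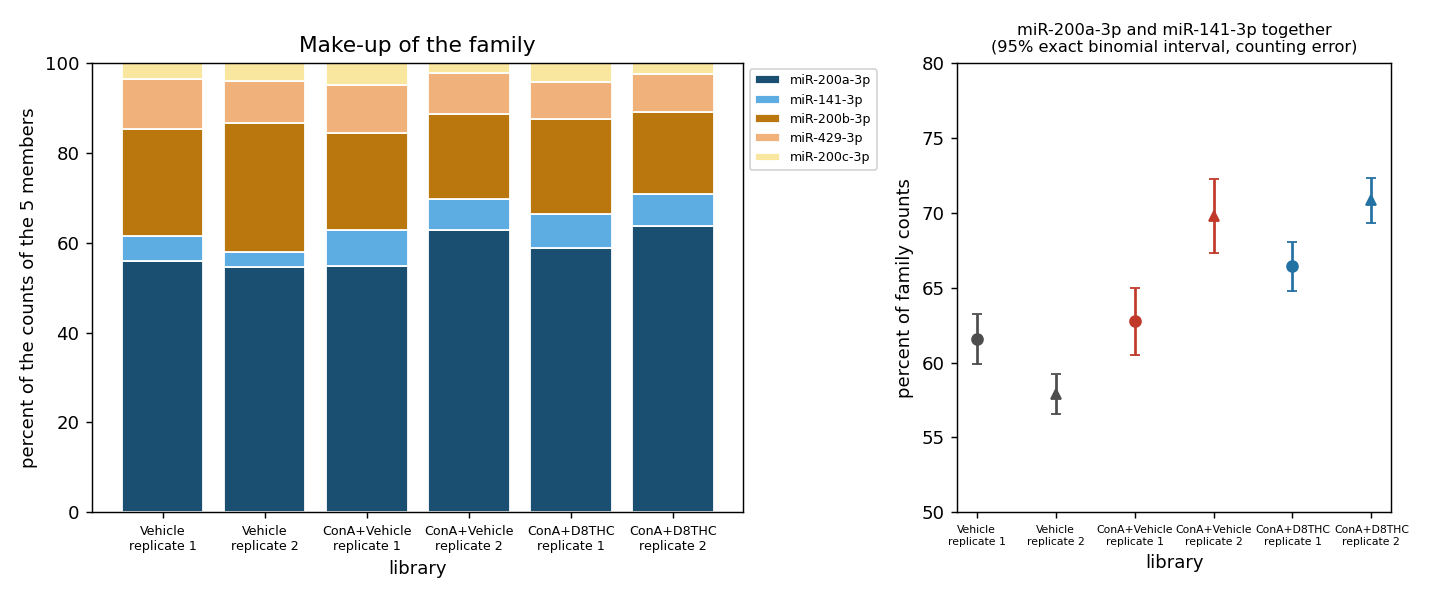
Left, percent of the family's counts held by each member in each library, with the AACACUG carriers in blue and the AAUACUG carriers in orange and yellow. Right, the blue part alone on an axis that starts at 50%, with 95% exact binomial intervals of counting error, from 57.9% in Vehicle replicate 2 to 70.8% in ConA+D8THC replicate 2.

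Members of 1 cluster did not keep a fixed ratio. Each ratio below sets an AACACUG carrier over an AAUACUG carrier. The ratios thus reuse the counts of the seed share above and are no separate evidence. On chromosome 6, miR-141-3p counts were 1.53 and 0.827 times those of miR-200c-3p in the Vehicle libraries, 1.60 and 3.06 times in ConA+Vehicle, and 1.77 and 2.95 times in ConA+D8THC. On chromosome 4, miR-200a-3p counts were 2.37 and 1.90 times those of miR-200b-3p in Vehicle, with ConA+Vehicle at 2.53 and 3.33 times and ConA+D8THC at 2.79 and 3.49 times. Both of these ratios were lower in both Vehicle libraries than in all 4 ConA libraries. How often ratios of other miRNAs order the libraries so was not computed. For single miRNAs such separation was common. By CPM, 67.3% of all tested miRNAs did not overlap between ConA+Vehicle and Vehicle, and 74.7% between ConA+D8THC and Vehicle. For the chromosome 6 pair the gap was narrow, 1.53 in Vehicle replicate 1 against 1.60 in ConA+Vehicle replicate 1. These rest on 181 and 118 counts and on 146 and 91 counts, and no interval was computed. The ratios within a cluster were not planned in advance and are descriptions. They also depend on how reads shared by near-identical members were assigned, which was not tested. Their means for Vehicle, ConA+Vehicle and ConA+D8THC were 1.18, 2.33 and 2.36 for the chromosome 6 pair and 2.14, 2.93 and 3.14 for the chromosome 4 pair. The other chromosome 4 ratio, of miR-200a-3p to miR-429-3p, did not separate in that way. It was 5.02 and 5.81 for Vehicle, 5.20 and 6.94 for ConA+Vehicle and 7.17 and 7.48 for ConA+D8THC, so that Vehicle and ConA+Vehicle overlapped while ConA+D8THC lay above both. On chromosome 6 the ConA+Vehicle replicates differed from each other by more than the group means did.

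The balance between the 2 clusters leaned to chromosome 4 throughout. miR-200a-3p and miR-141-3p, and likewise miR-200b-3p and miR-200c-3p, are near-identical and lie in different clusters. Reads assigned to the wrong one would thus move this balance, and how far they did was not tested. Its 3 members held 11.1 ± 1.86 (SD, n = 2) times the counts of the chromosome 6 pair in Vehicle, with ConA+Vehicle at 8.35 ± 2.25 times and ConA+D8THC at 8.47 ± 1.40 times. Single libraries ran from 6.76 to 12.4, and Vehicle replicate 1 (9.77) was below ConA+Vehicle replicate 2 (9.94), so those groups overlapped. The ConA+D8THC libraries (7.48 and 9.46) overlapped ConA+Vehicle and were both below both Vehicle libraries.

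Across the 6 libraries the log2 levels of members went together only in part. Pearson's r was 0.73 between miR-200b-3p and miR-429-3p and 0.60 between miR-200a-3p and miR-429-3p, but 0.34 between miR-200a-3p and miR-200b-3p, the third pair of the chromosome 4 cluster. Between the chromosome 6 pair it was -0.31. Across the clusters it ran from -0.58 (miR-200b-3p and miR-141-3p) to 0.57 (miR-200b-3p and miR-200c-3p). With 6 libraries in 3 groups these are descriptions only.

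Both arms of all 5 hairpins were counted separately. Mir200a and Mir141 are shown as the hairpins of the most abundant 3p arm and of the most abundant 5p arm. The 3p arm is in capitals; the 5p arm lies before it, at bases 16 to 37 of Mir200a and 6 to 27 of Mir141.

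Mir200a: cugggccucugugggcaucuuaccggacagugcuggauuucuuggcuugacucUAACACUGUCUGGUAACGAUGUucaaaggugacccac
Mir141: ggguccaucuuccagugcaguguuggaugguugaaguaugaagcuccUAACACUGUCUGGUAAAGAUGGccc

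The 3p arm was the dominant product of every hairpin. Over the 6 libraries miR-200a-5p had 28 counts against 10840 of miR-200a-3p, and miR-200b-5p had 24 against 4327. miR-200c-5p had 4 against 689, and miR-429-5p had 0 against 1762, which allows a 5p share of up to 0.209% (exact binomial). miR-141-5p was the largest of the 5p arms, with 45 counts against 1105, or 3.91% (2.87% to 5.20%) of both arms. It alone among them was tested; its counts were 9 and 8 for Vehicle, 2 and 2 for ConA+Vehicle and 13 and 11 for ConA+D8THC. It was called in none of the 3 comparisons (edgeR adjusted p = 0.532, 0.349 and 0.311).

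miR-141-5p and miR-141-3p, which come from 1 hairpin, had fitted differences of opposite sign between ConA+Vehicle and Vehicle. They were log2 -0.69 ± 0.70 for the 5p arm and 0.72 ± 0.30 for the 3p arm, and neither passed in edgeR (adjusted p = 0.532 and 0.0806). The 5p value rests on only 2 and 2 counts in ConA+Vehicle, against 9 and 8 in Vehicle, so its sign is uncertain.

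The label bile duct epithelium was set beside other lists. Of 9 miRNAs known from other epithelia, all 9 had a count in at least 1 library. Together they took 0.0673% to 0.108% of a library. miR-205-5p, miR-34b-5p, miR-34c-5p and miR-449a-5p had 0 to 10 counts per library and were not tested. Whether the counts of this list came from epithelial cells was not tested either. The most abundant was miR-203-3p, a miRNA of skin and other stratified epithelia, at 503 ± 74.9 CPM (SD, n = 2) in Vehicle, with ConA+Vehicle at 538 ± 11.7 and ConA+D8THC at 376 ± 9.16. miR-31-5p followed with 151 ± 34.2, 220.2 ± 30.6 and 122 ± 28.4. Of the 5 tested, edgeR called 0 in each comparison, with medians of log2 0.54 for ConA+Vehicle against Vehicle and -0.47 for ConA+D8THC against ConA+Vehicle. No list here separates bile duct from other epithelia, so the family is called by its name.

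Lists of other liver cell types differed between groups by more than the family's sum did. The hepatocyte list took 8.35% and 13.9% of counts in the Vehicle libraries, 17.1% and 19.7% in ConA+Vehicle, and 5.18% and 7.15% in ConA+D8THC. In ConA+Vehicle against Vehicle edgeR called 4 of its 6 miRNAs higher (miR-192-5p, miR-194-5p, miR-148a-3p and miR-802-5p), beside 19.9% of all tested. miR-122-3p was called lower (log2 -1.19, edgeR adjusted p = 0.0167). miR-122-5p, the most abundant, was not called (log2 0.62, edgeR adjusted p = 0.124). In ConA+D8THC against ConA+Vehicle 4 were called lower (miR-122-5p, miR-192-5p, miR-194-5p and miR-802-5p), beside 3.7%. Against Vehicle, ConA+D8THC had 4 called lower (miR-122-3p, miR-122-5p, miR-194-5p and miR-802-5p), beside 14.1%. The myeloid list, the arms of miR-223, took 0.343% ± 0.0145 (SD, n = 2) of Vehicle counts, 2.83% ± 0.114 for ConA+Vehicle and 1.82% ± 0.493 for ConA+D8THC. The endothelial share was 33.4% ± 1.04, 13.0% ± 0.310 and 23.7% ± 4.18.

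Pancreas, whose epithelium is also known to express the family, was looked for by 4 miRNAs: miR-375-3p, miR-216a-5p and miR-217-5p were detected and miR-216b-5p was at 0 in all libraries. These 4 took 0.00650% to 0.00742% of counts in Vehicle, with ConA+Vehicle at 0.00558% to 0.0102% and ConA+D8THC at 0.000434% to 0.000766%. The 3 tested were called lower by edgeR in ConA+D8THC against ConA+Vehicle, beside 3.7% of all tested, and against Vehicle, beside 14.1%. Of the 5 family members 0 were called. The pancreas calls rest on few counts. In ConA+Vehicle miR-216a-5p had 12 and 7 and miR-217-5p had 4 and 4, and in ConA+D8THC both were at 0. Both thus passed the low-count filter only through the other groups. miR-375-3p had 23 and 7 counts in ConA+Vehicle and 7 and 3 in ConA+D8THC. Lymphocyte, erythroid, and stellate cell and fibroblast lists took 0.562% to 1.11%, 0.0434% to 0.180% and 0.740% to 1.32%. The part of any of these in the family's values was not tested.

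**Figure D4:**
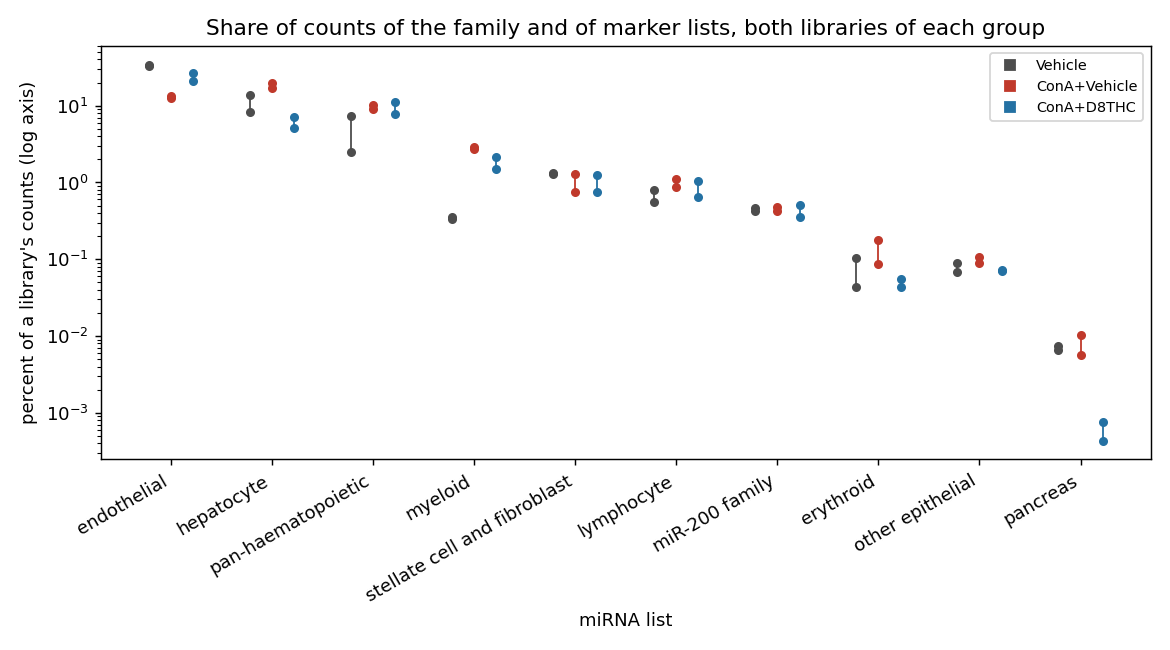
Percent of a library's counts (log axis) held by the miR-200 family and by lists of marker miRNAs; the 2 joined points are the 2 libraries of a group. The family lies between 0.357% and 0.509% in all groups, while the pancreas list is at 0.00558% or more in Vehicle and ConA+Vehicle and at 0.000766% or less in ConA+D8THC.

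Within groups, the miR-142a share ran opposite to the family's share in Vehicle and ConA+D8THC and together with it in ConA+Vehicle. With 2 libraries in a group, shares can only run together or opposite, so this is a description only. In Vehicle the libraries with 0.427% and 0.470% of family counts had 7.31% and 2.53% of miR-142a, and in ConA+D8THC those with 0.357% and 0.509% had 11.2% and 7.72%. In ConA+Vehicle the libraries with 0.482% and 0.427% had 10.3% and 9.03%. The part of this blood cell share in the spread between replicates was not tested.

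The tested miRNAs outside the family that were most like it were picked by Pearson's r, over the 6 libraries, with the log2 of the summed family level. They were miR-709 (r = 0.941), the muscle miRNAs miR-133a-3p (0.933) and miR-1a-3p (0.902), miR-30a-5p (0.807) and miR-140-5p (0.770). All 5 were lowest in ConA+D8THC replicate 1, as was the family. In that library miR-709 and miR-133a-3p had 1 count each, or 1.03 CPM, where 3 counts make 3.10 CPM. In the other libraries miR-709 had only 4 to 19 counts. Without that library r was 0.344, -0.762, 0.0678, -0.0273 and -0.138, so the likeness rests on it.

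**Figure D5:**
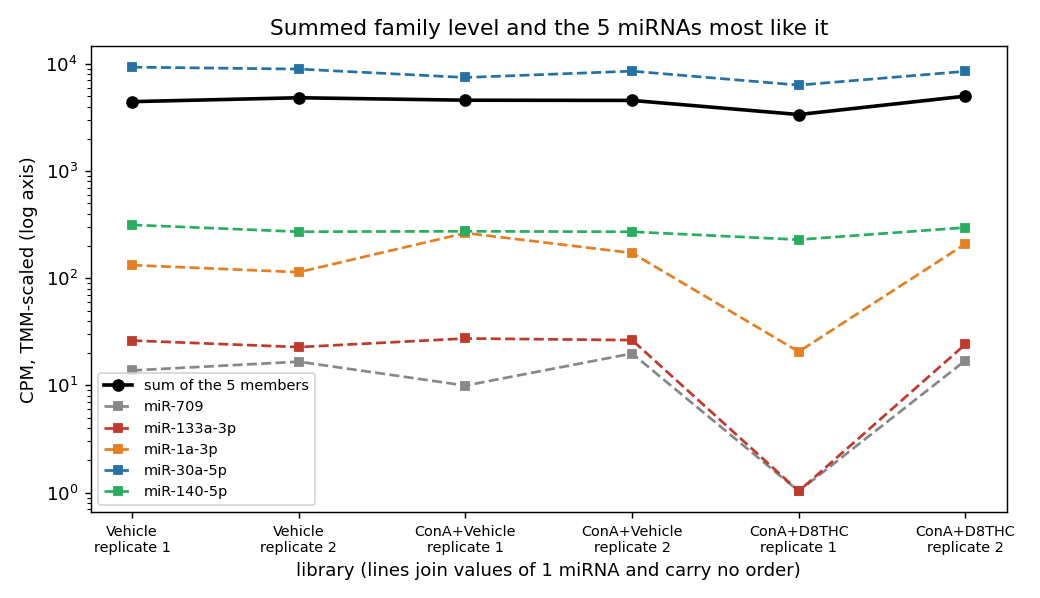
CPM on a log axis of the summed family and of the 5 miRNAs most like it, by library. All 6 lines are at their lowest in ConA+D8THC replicate 1, where the family held 3367 CPM and miR-1a-3p 20.6 CPM.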

How the data were processed

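Small RNA libraries (QIAseq miRNA kit, NextSeq 550) were aligned and counted by the authors in QIAGEN's GeneGlobe portal, per the labels and the series' design text, with build mm10 per the submitters' processing notes; the deposited values are raw counts per mature miRNA. The labels do not state the aligner, annotation release, multi-mapping rule or use of molecular identifiers. The libraries of a group differed beyond sampling noise (chi-square over its degrees of freedom 13.7 to 216).

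Tests used edgeR 4.0.16 under R 4.3.3: filterByExpr by group, TMM, 1 design over 6 libraries (3 residual degrees of freedom), robust glmQLFit and glmQLFTest, Benjamini-Hochberg over 297 miRNAs, called at an adjusted p under 0.05. Standard errors are approximate, from dividing the size of a log2 fold change by the root of its F statistic. Correlations use log2 CPM with a prior count of 2. The procedure was run on simulated data with 4-fold changes in 200 miRNAs. Those changes were larger than that of any member, so the run does not show how well changes of the members' size are found. Alternatives were DESeq2 1.42.0, limma-voom (limma 3.58.1), other normalizations, no filter, 2 groups only, a replicate block and each library left out. Figures used Python 3.11.15 and matplotlib 3.10.9.

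All 5 members, their 5p arms, the 5 miRNAs most like the family and the leading miRNA of lists were named by rule. So were list miRNAs that a sentence counts. The muscle miRNAs miR-206-3p and miR-133b-3p were named after their values were seen. Members and lists were chosen with earlier results of these data known.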

Additional observations from a re-analysis of the deposited data

How the results depend on the processing

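With 2 libraries per group the calls of single members are uncertain. In ConA+Vehicle against Vehicle the 5 members gave 0 calls in the reported fit and 1 call, miR-141-3p, with upper-quartile factors (log2 0.77), with 2 against 2 libraries (0.74) and with the replicate block (0.73, edgeR adjusted p = 0.0260). Leaving out each library gave 0 to 1 calls, with miR-141-3p at log2 0.45 to 1.04, miR-200a-3p at -0.0091 to 0.19, miR-200c-3p at -0.79 to 0.34 and miR-429-3p at -0.17 to 0.055. miR-200a-3p was at -0.038 with DESeq2 size factors and in DESeq2. In ConA+D8THC against ConA+Vehicle 0 members were called in every alternative run. There miR-200a-3p was at 0.039 with DESeq2 size factors and in DESeq2, 0.0032 with library totals and 0.00046 with no filter. Leaving out each library put it at -0.41 to 0.26, miR-200c-3p at -0.72 to 0.36 and miR-141-3p at -0.39 to 0.089. In ConA+D8THC against Vehicle 1 member, miR-200b-3p, was called with the replicate block (log2 -0.58, edgeR adjusted p = 0.0150), and leaving out each library gave 0 to 1 calls with it at -0.77 to -0.34. miR-200a-3p was at -0.062 with upper-quartile factors, -0.030 with limma-voom and -0.019 with the replicate block, and at -0.32 to 0.33 with each library left out. On library totals the summed level was 4545 CPM in ConA+Vehicle and 4486 in Vehicle, so the order of these means turned (4572 and 4637 with TMM). The cause of these shifts was not tested.

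Over all miRNAs, the 109 calls of ConA+Vehicle against Vehicle were 67 without ConA+Vehicle replicate 1, and the 97 of ConA+D8THC against Vehicle were 63 without ConA+D8THC replicate 1. The 11 of ConA+D8THC against ConA+Vehicle were 17 with upper-quartile factors, 19 with no filter, 17 in DESeq2, 18 with 2 against 2 libraries, 44 with the replicate block and 8 to 40 with each library left out. DESeq2 size factors moved the median of all miRNAs by -0.11 (log2) in ConA+Vehicle against Vehicle and by 0.10 in ConA+D8THC against ConA+Vehicle, where upper-quartile factors moved it by -0.11; library totals moved it by 0.11 in ConA+D8THC against Vehicle. Replicate numbers pair no animals in the labels; the differences of replicate 1 from replicate 2 correlated between groups at r = 0.20, 0.24 and 0.07 over 297 miRNAs. miR-200c-3p, with 31 counts in its poorest library, is the member most limited by depth.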

Other observations

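The muscle miRNAs that came up beside the family were looked at once more by library. miR-1a-3p, a miRNA of heart and skeletal muscle, had 96 and 130 counts in Vehicle, 106 and 52 in ConA+Vehicle, and 20 and 147 in ConA+D8THC. miR-133a-3p, made from the same transcripts, had 19 and 26, 11 and 8, and 1 and 17 counts in the same order. ConA+D8THC replicate 1, with 913285 counts in total, was thus lowest for both. miR-206-3p, a skeletal muscle miRNA chosen after its values were seen, had 11 and 18, 6 and 7, and 9 and 7 counts in that order. On the CPM scale it held 15.2 and 15.8 in Vehicle, 15.0 and 23.2 in ConA+Vehicle, and 9.29 and 9.96 in ConA+D8THC. By CPM it was thus also lowest in ConA+D8THC replicate 1, though close to replicate 2 and on few counts. miR-133b-3p, which was not tested, had 2 and 1 counts in Vehicle and 0 in every ConA+Vehicle and ConA+D8THC library. It thus did not set ConA+D8THC replicate 1 apart.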
